A study of Rattus norvegicus with 20 samples.

Results

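Transcripts of the fibrillar collagens and of fibronectin were followed in rat heart ventricles. The 4 genes were chosen by name and Ensembl ID, which were Col1a1 (ENSRNOG00000003897), Col1a2 (ENSRNOG00000011292), Col3a1 (ENSRNOG00000003357) and Fn1 (ENSRNOG00000014288). These are 4 of the 24059 IDs counted, no ID was missing, and all 4 passed the filter on low counts that left 14293 genes for testing. Ventricles of 20 male Sprague Dawley rats aged 9 weeks were sequenced, 1 library per rat and 5 rats per group. The sources describe the rats as littermates and name no litter for any library. WT control and Vegfb KO control rats were not made diabetic. WT diabetic and Vegfb KO diabetic rats received 55 mg/kg streptozotocin (STZ), which destroys pancreatic beta cells and so lowers insulin, by intravenous injection and were sampled on day 4 of diabetes. Vegfb KO rats lack Vegfb in every tissue, because zinc-finger nucleases were used to insert a gene that disrupts it. The sources name the inserted gene as beta-glucosidase in some places and as beta-galactosidase in others.

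Type I and type III collagen are the main fibrillar collagens of the heart and give the ventricular wall its tensile strength. Type I collagen is a heterotrimer of chains encoded by Col1a1 and Col1a2, whereas type III collagen is a homotrimer of the chain encoded by Col3a1. Fibronectin, encoded by Fn1, is an adhesive glycoprotein of the matrix onto which collagen fibrils are laid down, and fibroblasts are a main source of these proteins in the heart.

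Total counts per library ranged from 7220469 to 26664479, with a median of 20.7 M. The libraries with the lowest totals were Vegfb KO diabetic replicate 1 (7220469) and WT control replicate 2 (7314287). The 4 genes were well counted even there, since the lowest count of any of them was 440, for Fn1 in Vegfb KO diabetic replicate 1, and the highest was 20077, for Col3a1 in WT control replicate 5. Counting error alone then amounts to between 0.706% and 4.77% of a value. In WT diabetic replicate 2 a single ID took 23.3% of all counts, and the same ID took 25.5% in Vegfb KO diabetic replicate 1, against at most 5.28% in the other 18 libraries. With TMM factors of 0.729 and 0.693 this pair also lay apart from the other 18 libraries, whose factors were between 0.935 and 1.17. Levels are given as CPM, the count relative to the TMM-scaled size of its library. The deposited IDs carry no names, so that Vegfb itself and markers of the cell types of the ventricle were not analysed here.

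Col1a1 encodes the alpha-1 chain of type I collagen. In WT control hearts its level in replicates 1 to 5 was 200, 237, 170, 170 and 288 CPM, and in WT diabetic hearts 109, 179, 242, 134 and 144 CPM. In Vegfb KO control hearts it was 211, 260, 219, 199 and 236 CPM, and in Vegfb KO diabetic hearts 249, 186, 134, 179 and 179 CPM. Within both genotypes the groups overlapped. Of the WT diabetic hearts, 3 of 5 lay below the lowest WT control, and of the Vegfb KO diabetic hearts, 4 of 5 lay below the lowest Vegfb KO control, whereas WT diabetic replicate 3 and Vegfb KO diabetic replicate 1 were as high as controls, the latter depending on the scaling, as described below.

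Col1a2 encodes the alpha-2 chain, which joins the product of Col1a1 in the same trimer. Its level was 236, 297, 227, 240 and 327 CPM in WT control hearts and 155, 226, 290, 182 and 195 CPM in WT diabetic hearts. In Vegfb KO hearts it was 255, 303, 266, 249 and 281 CPM in controls and 268, 229, 190, 224 and 219 CPM in diabetic rats. The pattern over rats was close to that of Col1a1. In each genotype 4 of 5 diabetic hearts lay below the lowest control, and the exceptions by TMM-scaled level were again WT diabetic replicate 3 and Vegfb KO diabetic replicate 1. The margin was narrow for WT diabetic replicate 2 (226 against 227 CPM). With factors from the upper quartile of counts in place of TMM, 3 of 5 WT diabetic hearts lay below the lowest control.

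Of the 4 genes, Col1a2 was matched to a promoter in the RefSeq table used here, and Col1a1, Col3a1 and Fn1 were not. It was thus the only sequence of the 4 that could be shown. The stretch runs from 250 to 151 bases before the annotated start, at chr4:33518307-33518406 on the plus strand of the build GRCr8, whereas the counts were made on another build. All distances are to the annotated start, which lies farther downstream of the TATA-box motif than is usual. The start used in the heart was not tested, so the distances hold for the annotation only, and the stretch was limited to 100 bases for that reason.
Col1a2 promoter: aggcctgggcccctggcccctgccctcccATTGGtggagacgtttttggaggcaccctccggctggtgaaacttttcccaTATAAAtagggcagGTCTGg
Capitals mark the motifs that were found. The motif CCAAT, the TATA-box motif TATAAA, the GC-box motif GGGCGG and the SMAD-type motif CAGAC were searched on both strands. CCAAT occurred once on the opposite strand (read as ATTGG), 221 bases before the start, TATAAA once on the printed strand, 170 bases before it, and CAGAC once on the opposite strand (read as GTCTG), 156 bases before it. These matches did not overlap, and GGGCGG was not found in this window. In the same stretch of all 33469 promoters of the table, CCAAT was present in 14.5%, TATAAA in 5.43%, GGGCGG in 10.4% and CAGAC in 20.5%. A match describes the letters only, since no binding was measured.

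Col3a1 encodes the chain of type III collagen, which forms finer fibrils together with type I. It measured 563, 720, 517, 538 and 858 CPM in WT control hearts and 309, 436, 729, 452 and 482 CPM in WT diabetic hearts. In Vegfb KO hearts the values were 655, 761, 643, 640 and 739 CPM in controls and 674, 532, 390, 622 and 605 CPM in diabetic rats. The same 4 of 5 diabetic hearts in each genotype as for Col1a2 were below every control heart of their genotype, and the same pair of diabetic hearts was high by TMM-scaled level.

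Fn1 did not have a lower level in most diabetic hearts, although by TMM-scaled level the same pair of hearts was again the highest of its groups. Its level was 76.6, 79.8, 53.8, 56.2 and 70.2 CPM in WT control hearts and 54.3, 92.1, 104, 53.6 and 53.2 CPM in WT diabetic hearts. In Vegfb KO hearts it was 73.7, 76.8, 56.7, 55.3 and 63.6 CPM in controls and 87.9, 67.8, 74.8, 65.8 and 68.1 CPM in diabetic rats. By TMM-scaled level, WT diabetic hearts were spread around the controls, with replicates 2 and 3 above every WT control and replicates 4 and 5 below by a narrow margin. The median was 70.2 CPM in WT control and 54.3 CPM in WT diabetic hearts, and 3 of 5 WT diabetic hearts were below the control median. In Vegfb KO rats all 5 diabetic hearts were above the control median by the same scaling, but only 1 of 5 was above the highest control. These counts for Fn1 changed with the scaling, as described below.

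The place of both libraries with a low TMM factor depended on the scaling. By library total, Vegfb KO diabetic replicate 1 had 172 CPM of Col1a1, 186 CPM of Col1a2 and 468 CPM of Col3a1, below every Vegfb KO control, and 61.0 CPM of Fn1, the lowest of its group. WT diabetic replicate 2 had 67.1 CPM of Fn1 by library total, within the range of the WT controls. These totals include the single ID with 25.5% and 23.3% of the counts. In a check chosen after seeing the data, that ID was left out of all totals and no factor was used. Vegfb KO diabetic replicate 1 then had 231 CPM of Col1a1, 249 CPM of Col1a2 and 627 CPM of Col3a1, within the range of its controls, and 81.8 CPM of Fn1, and WT diabetic replicate 2 had 87.5 CPM of Fn1, both above every control of their genotype. Diabetic hearts below the lowest control of their genotype numbered, for Col1a1, Col1a2 and Col3a1, 4, 4 and 3 of 5 in WT and 4, 3 and 3 of 5 in Vegfb KO rats by library total, and 3, 3 and 3 of 5 and 3, 2 and 2 of 5 with that ID left out. For Fn1, WT diabetic hearts below the lowest control numbered 0 of 5 by library total and 0 of 5 with that ID left out. Diabetic hearts above the highest control numbered 1 and 2 of 5 in WT and 3 and 2 of 5 in Vegfb KO rats, in the same order. By library total, Vegfb KO diabetic replicate 1 was below the control median for Fn1. WT diabetic replicate 3 was the highest of its group for all 4 genes under each scaling.

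**Figure D1:**
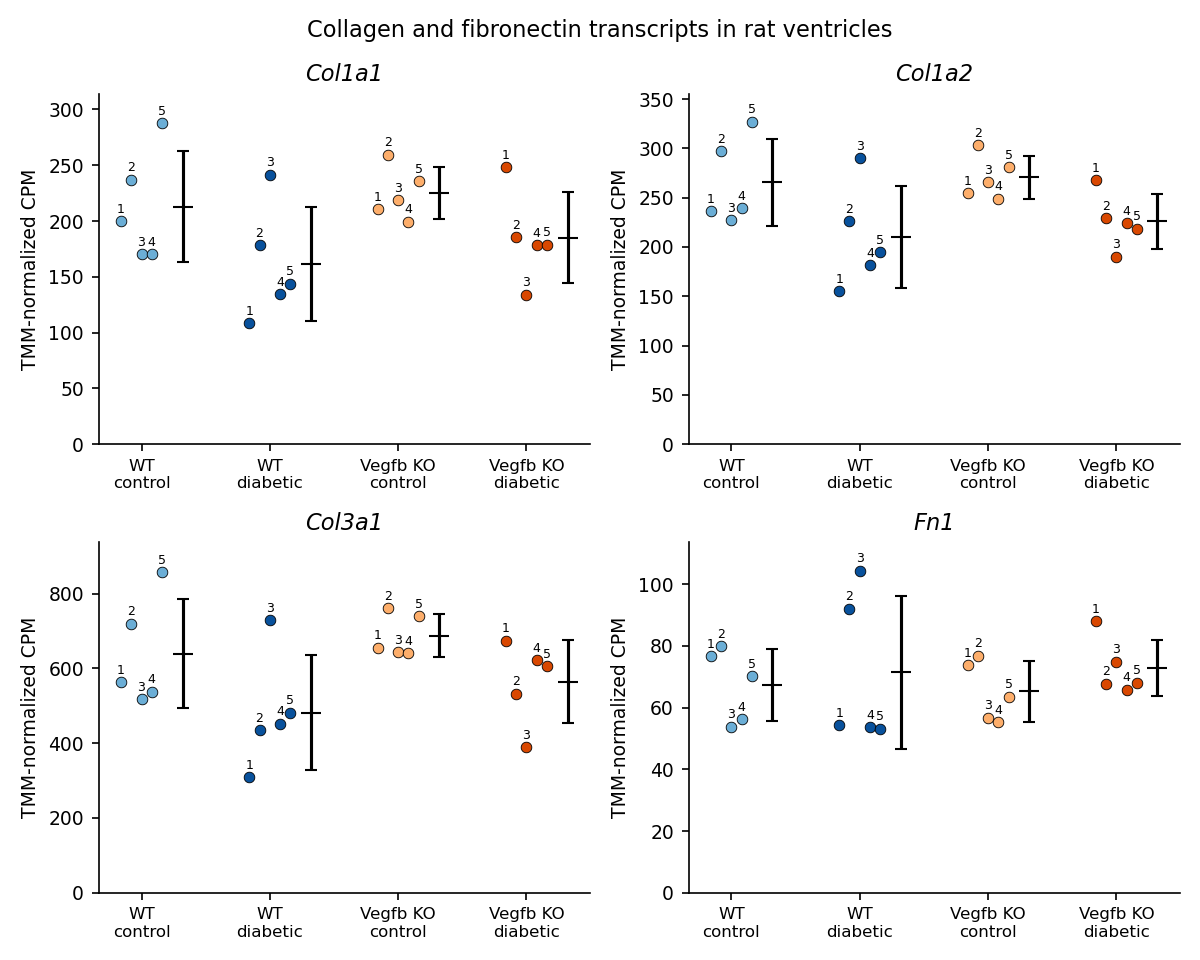
TMM-normalized CPM (y axis) of Col1a1, Col1a2, Col3a1 and Fn1 in each of the 4 groups (x axis), with 1 numbered point per rat and the mean ± SD (n = 5) beside the points. Most diabetic hearts lie below their controls for the 3 collagens, WT diabetic replicate 3 and Vegfb KO diabetic replicate 1 lie high, and the groups overlap for all 4 genes.

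By group mean, the order was the same for the 3 collagens, from Vegfb KO control through WT control and Vegfb KO diabetic to WT diabetic. Col1a1 averaged 225 ± 23.5, 213 ± 50.0, 185 ± 41.0 and 161 ± 51.4 CPM in that order (SD, n = 5 each). Col1a2 averaged 271 ± 21.8, 265 ± 44.0, 226 ± 27.9 and 210 ± 51.7 CPM, and Col3a1 averaged 688 ± 57.7, 639 ± 146, 565 ± 110 and 481 ± 153 CPM (SD, n = 5 each). Neighbours in this order differed by less than the larger of their SDs. For Fn1 the order was Vegfb KO diabetic (72.9 ± 9.07 CPM), WT diabetic (71.5 ± 24.8 CPM), WT control (67.3 ± 11.8 CPM) and Vegfb KO control (65.2 ± 9.76 CPM), and these means lay within each other's SD. The 4 genes varied from rat to rat more than the median gene. After removal of group means, the SD of log2 CPM was 0.32 for Col1a1, 0.23 for Col1a2, 0.32 for Col3a1 and 0.31 for Fn1, against a median of 0.21 over the genes tested, and 72.4%, 56.5%, 71.6% and 70.0% of genes had a smaller SD.

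To ask whether short-term diabetes changed these transcripts in WT hearts, edgeR's quasi-likelihood test was applied to diabetic against control rats. Calls required a p under 0.05 after Benjamini-Hochberg adjustment together with an absolute log2 fold change above 0.27. The 3 collagens had lower estimates. Fn1 had an estimate near 0, although its median CPM was lower in diabetic than in control hearts. None of the 4 was called (0 of 4), whereas 13.1% of all genes tested were called and 7.07% were called lower. The log2 fold change of Col1a1 was -0.40 (standard error 0.19, adjusted p = 0.189, edgeR). It was -0.34 for Col1a2 (standard error 0.13, adjusted p = 0.0974, edgeR) and -0.41 for Col3a1 (standard error 0.18, adjusted p = 0.158, edgeR). Fn1 had an estimate of 0.09 (standard error 0.18, adjusted p = 0.798, edgeR), with a 95% interval from -0.28 to 0.47. Col1a2 and Col3a1 were lower at an unadjusted p under 0.05, as were 13.9% of all genes, and Col1a1 was not. With only the 10 WT libraries in the fit, 0 of the 3 collagens were lower at an unadjusted p under 0.05, where 13.1% of all genes were. In bulk tissue, fewer matrix-producing cells and less RNA per cell cannot be told apart.

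The WT result depended on single hearts in both directions. Without WT control replicate 5 the log2 fold change was -0.26 for Col1a1 and -0.28 for Col3a1. Without WT diabetic replicate 1 it was -0.25 for Col1a2, and none of these was called. Without WT diabetic replicate 3 all 3 collagens were called, with log2 fold changes of -0.58 for Col1a1 (adjusted p = 0.0227, edgeR), -0.48 for Col1a2 (adjusted p = 0.00683, edgeR) and -0.60 for Col3a1 (adjusted p = 0.0124, edgeR), where 15.9% of all genes were called and 8.22% were called lower. Fn1 then had a log2 fold change of -0.080, the opposite sign, and it was also below 0 without WT diabetic replicate 2 (-0.015) and without both libraries of low TMM factor (-0.018). With limma's voom and sample quality weights, which give less weight to libraries that vary more, the 3 collagens were also called, at -0.62, -0.49 and -0.58, and Fn1 was at -0.17, where 19.7% of all genes were called and 10.2% were called lower.

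In Vegfb KO hearts the comparison of diabetic with control rats gave estimates of the same sign. None of the 4 genes was called (0 of 4), where 7.84% of all genes were called and 4.21% were called lower. The log2 fold change was -0.28 for Col1a1 (standard error 0.19, adjusted p = 0.425, edgeR) and -0.26 for Col1a2 (standard error 0.13, adjusted p = 0.262, edgeR). It was -0.28 for Col3a1 (standard error 0.18, adjusted p = 0.404, edgeR) and 0.15 for Fn1 (standard error 0.18, adjusted p = 0.680, edgeR). At an unadjusted p under 0.05, 0 of the 3 collagens and 11.3% of all genes were lower. With only the 10 Vegfb KO libraries in the fit, which sets the variance from these hearts alone, the log2 fold changes of the 3 collagens were again -0.28, -0.26 and -0.28 (adjusted p = 0.201, 0.0969 and 0.173, edgeR), and 3 of 3 were lower at an unadjusted p under 0.05, as were 11.8% of all genes in that fit, none of the 3 being called. When each library was left out of the fit to all, the values ranged from -0.40 to -0.19 for Col1a1, from -0.32 to -0.21 for Col1a2 and from -0.35 to -0.18 for Col3a1, weakest without Vegfb KO diabetic replicate 3, and from 0.093 to 0.22 for Fn1. Without both libraries of low TMM factor Fn1 was at 0.078. The number of genes called in this comparison, 1121, was 643 without Vegfb KO diabetic replicate 3.

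Over both genotypes, the mean of the 2 diabetes contrasts compared 10 diabetic with 10 control hearts, and 1 of 4 genes was called. Of all genes 16.2% were called in this contrast and 8.3% were called lower, so that 1 call among 4 genes is close to the background. Col1a2 fell, with a log2 fold change of -0.30 (standard error 0.09, 95% interval from -0.50 to -0.10, adjusted p = 0.0235, edgeR), which is a change of -18.8%. Col1a1 had a similar log2 estimate of -0.34 (standard error 0.14, adjusted p = 0.0769, edgeR) and Col3a1 one of -0.35 (standard error 0.13, adjusted p = 0.0614, edgeR), neither of which was called. All 3 collagens were lower at an unadjusted p under 0.05, as were 17.7% of all genes. The estimate for Fn1 was 0.12 (standard error 0.13, adjusted p = 0.533, edgeR), with a 95% interval from -0.14 to 0.39, and it was -0.0061 with voom, the opposite sign.

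The call of Col1a2 was lost without WT control replicate 5 (log2 fold change -0.26, adjusted p = 0.0526, edgeR), without WT diabetic replicate 1 (log2 fold change -0.26, adjusted p = 0.0428, edgeR, under the fold change threshold) and with library totals in place of TMM factors (log2 fold change -0.32, adjusted p = 0.0994, edgeR). Col1a1 was called without WT diabetic replicate 3 (-0.43), without Vegfb KO diabetic replicate 1 (-0.39), without the 2 libraries of low TMM factor (-0.43), with DESeq2 (-0.34) and with voom (-0.46), and Col3a1 without WT diabetic replicate 3 (-0.44), without WT control replicate 3 (-0.38), with DESeq2 (-0.34) and with voom (-0.43). Between 15.7% and 18.3% of all genes were called in the fits that called Col1a1 or Col3a1. In the fits that lost the call of Col1a2, 15.2%, 15.6% and 9.98% of all genes were called, in the order given. With each library left out, Col1a2 was called in 18 of 20 fits, Col1a1 in 2 and Col3a1 in 2. In the 10 other alternatives these numbers were 9, 3 and 2. The estimates of the 3 collagens were thus negative in each of these fits. Their place on either side of the threshold depended on the fit, least often for Col1a2.

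**Figure D2:**
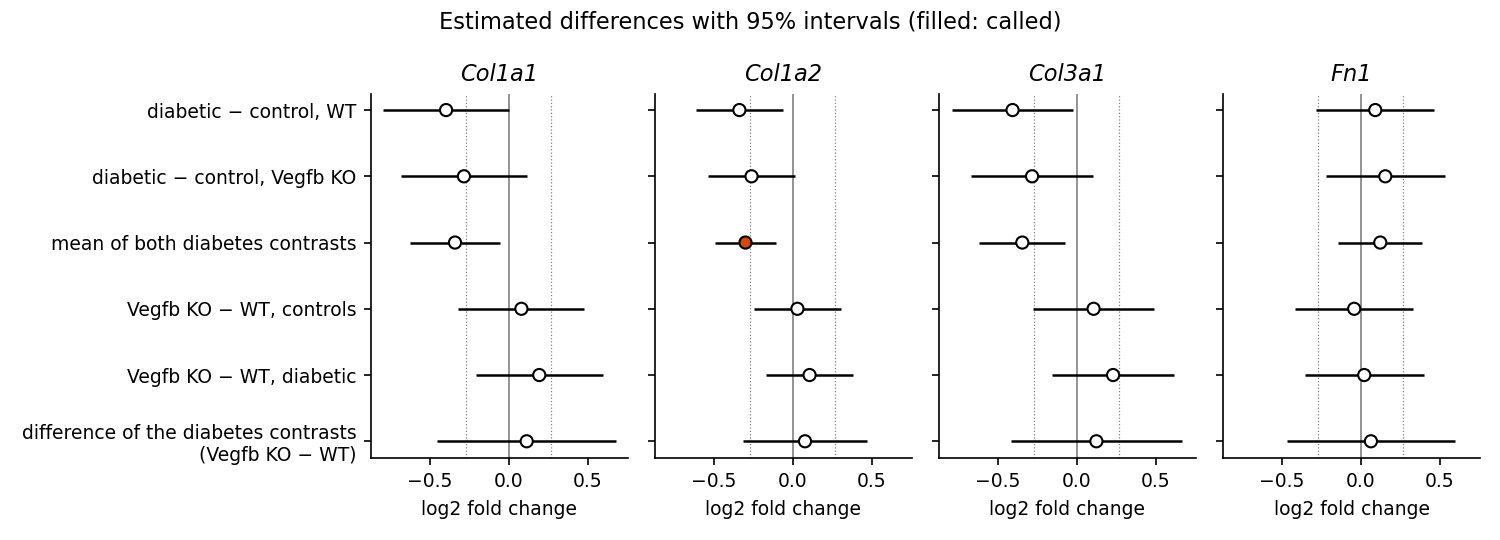
Estimated log2 fold change (x axis) with its 95% interval for 6 contrasts (y axis) of Col1a1, Col1a2, Col3a1 and Fn1, from the edgeR fit to all 20 libraries. The filled point marks the only call, Col1a2 in the mean of both diabetes contrasts at -0.30, and dotted lines mark the threshold of 0.27 in each direction.

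**Figure D3:**
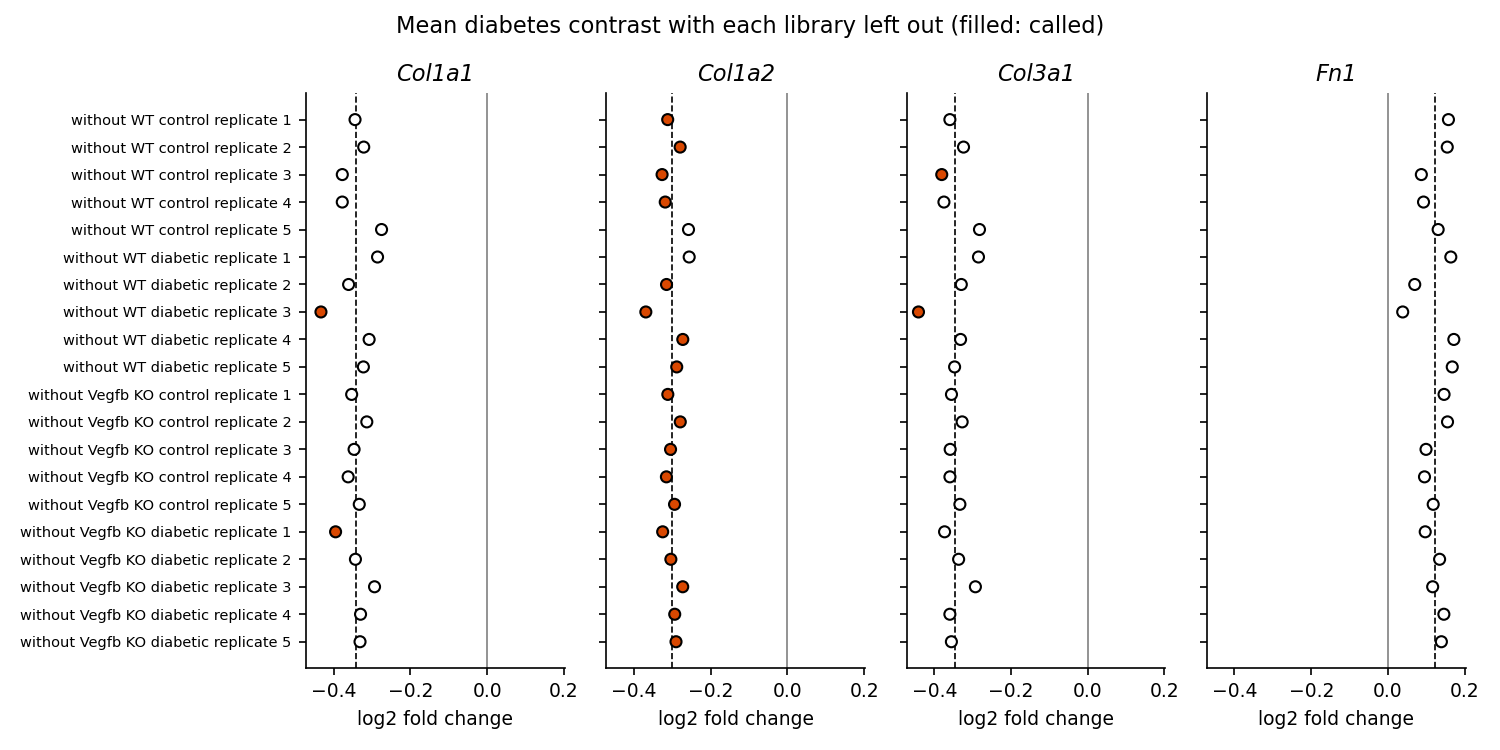
Log2 fold change of the 4 genes for the mean of both diabetes contrasts (x axis) with each of the 20 libraries left out in turn (y axis). Filled points are called, dashed lines mark the estimate from all libraries, and Col1a2 loses its call without WT control replicate 5 or WT diabetic replicate 1.

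Loss of Vegfb was compared in control and in diabetic rats to ask whether it altered the same transcripts. Between control hearts 0 of 4 genes were called, where 0.028% of all genes were called. Vegfb KO minus WT log2 fold changes were 0.08 for Col1a1, 0.03 for Col1a2, 0.11 for Col3a1 and -0.04 for Fn1, with standard errors of 0.19, 0.13, 0.18 and 0.18 (adjusted p = 1.00 for each, edgeR). Between diabetic hearts 0 of 4 genes were called, where 0.042% of all genes were called. The number of genes behind this share, 6, was 181 without WT diabetic replicate 3. The log2 fold changes there were 0.19 for Col1a1 (adjusted p = 0.816, edgeR), 0.11 for Col1a2 (adjusted p = 0.867, edgeR), 0.23 for Col3a1 (adjusted p = 0.754, edgeR) and 0.02 for Fn1 (adjusted p = 0.992, edgeR). These estimates depended on single hearts, as they ranged from 0.067 to 0.38 for Col1a1, from 0.016 to 0.24 for Col1a2 and from 0.11 to 0.42 for Col3a1 when each library was left out, highest without WT diabetic replicate 3. Voom gave 0.36, 0.23 and 0.39, and 0.22 for Fn1, whose sign was not stable with single libraries left out (lowest -0.074), and no collagen was called in any of these fits. Between controls the values for Col1a1 and Col3a1 kept their sign but ranged from 0.0086 to 0.21 and from 0.039 to 0.24 when each library was left out. The signs of Col1a2 and Fn1 were not stable, and Col1a2 was at -0.015 with library totals in place of TMM factors.

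The diabetes contrasts of the 2 genotypes have no control rats in common, and their difference was tested as an interaction. The difference, Vegfb KO minus WT, was 0.11 for Col1a1, 0.08 for Col1a2, 0.12 for Col3a1 and 0.06 for Fn1 on the log2 scale (adjusted p = 1.00 for each, edgeR). The 95% intervals were wide, from -0.45 to 0.68 for Col1a1, from -0.31 to 0.47 for Col1a2, from -0.42 to 0.67 for Col3a1 and from -0.47 to 0.59 for Fn1. Thus 0 of 4 genes were called, and 0% of all genes were called in this test. At an unadjusted p under 0.05 edgeR gave 600 genes, DESeq2 614 and voom 1541, and DESeq2 and voom also called 0 genes after adjustment. Voom gave larger differences for the 4 genes, of 0.32, 0.22, 0.29 and 0.33 in the same order. Leaving out single libraries turned the sign for each of the 4 genes, with lowest values of -0.021, -0.013, -0.0061 and -0.028. A smaller response of the collagens in Vegfb KO hearts was therefore not detectable with 5 rats per group, and these intervals include differences as large as the diabetes contrasts themselves.

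Ratios between 2 transcripts of the same library do not depend on library size or on the TMM factors, and they were described without a test. The count of Fn1 per 100 counts of Col1a1 was 38.3, 33.7, 31.6, 33.0 and 24.4 in WT control hearts and 49.9, 51.6, 43.2, 39.9 and 37.0 in WT diabetic hearts. In Vegfb KO hearts it was 35.0, 29.6, 25.9, 27.7 and 26.97 in controls and 35.4, 36.5, 55.8, 36.9 and 38.1 in diabetic rats. Thus 4 of 5 WT diabetic hearts were above every WT control, and all 5 Vegfb KO diabetic hearts were above every Vegfb KO control, the lowest of them by a narrow margin (35.4 against 35.0). The group means were 32.2 ± 5.04 and 44.3 ± 6.30 in WT and 29.0 ± 3.58 and 40.5 ± 8.59 in Vegfb KO rats (SD, n = 5 each).

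On the log2 scale the ratio of Fn1 to Col1a1 was 0.46 higher with diabetes in WT and 0.47 higher in Vegfb KO hearts, where the pooled SD between rats was 0.22 and 0.23. For Fn1 to Col1a2 the difference was 0.40 in WT, with overlap, and 0.43 in Vegfb KO hearts, where diabetic rats again did not overlap with controls. For Fn1 to Col3a1 it was 0.47 in both genotypes, with overlap in both. The separation in Vegfb KO hearts was not rare among genes. When each other gene tested took the place of Fn1, 5.78% had a ratio to Col1a1, and 10.1% a ratio to Col1a2, that put every Vegfb KO diabetic library above every Vegfb KO control library. All 10 diabetic hearts had an Fn1 ratio above the median of the 10 controls for each of the 3 collagens, which held for 9.82% of genes set against Col1a1, 14% against Col1a2 and 12.5% against Col3a1.

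Among the collagens the proportions moved less. The log2 ratio of Col1a1 to Col1a2 differed between diabetic and control hearts by -0.07 in WT and -0.04 in Vegfb KO rats, that of Col1a1 to Col3a1 by 0.01 and 0.00, and that of Col1a2 to Col3a1 by 0.08 and 0.04. Each of these 6 differences was smaller than the pooled SD between rats, and all groups overlapped.

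**Figure D4:**
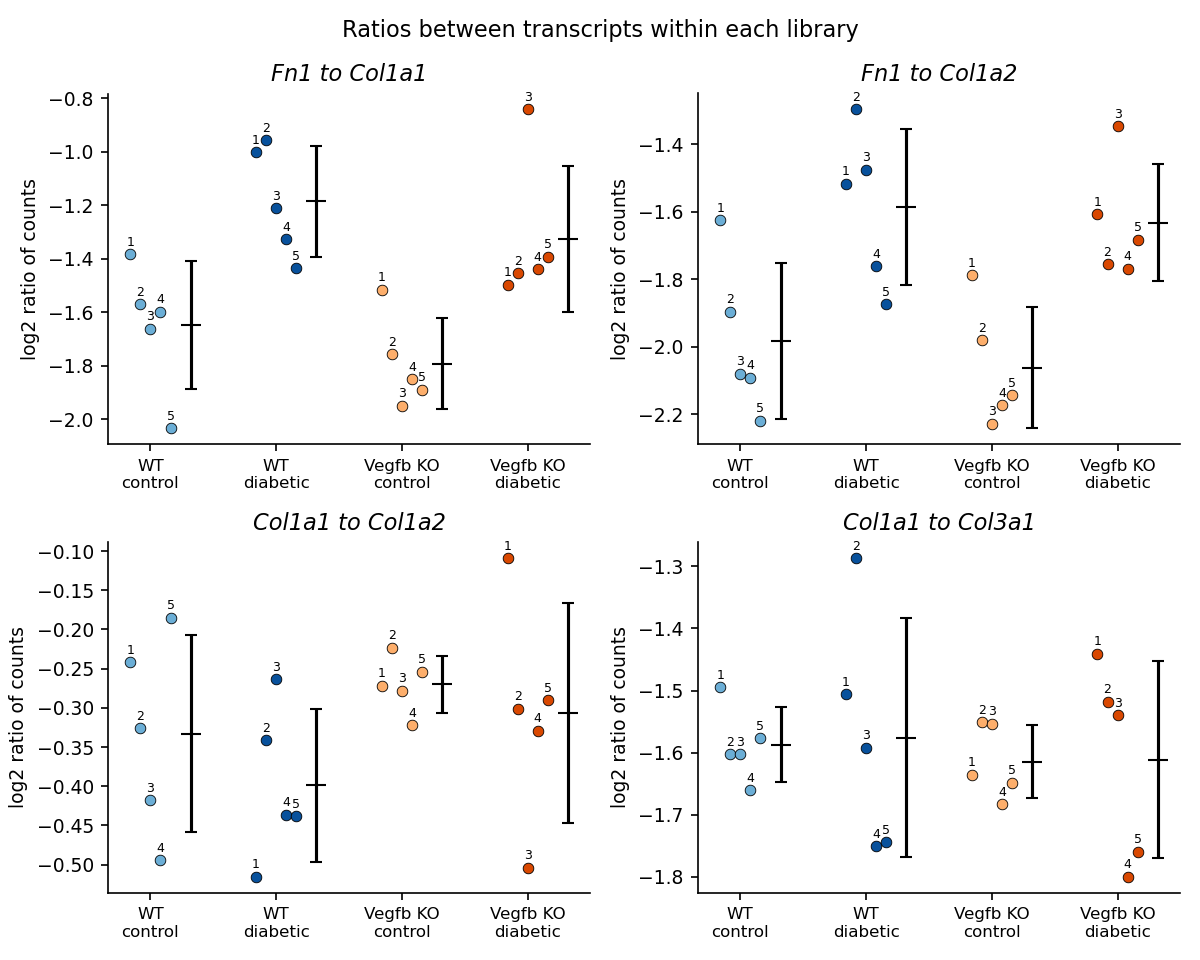
Log2 ratio of counts within each library (y axis) for 4 pairs of transcripts in the 4 groups (x axis), with 1 numbered point per rat and the mean ± SD (n = 5). Ratios of Fn1 to Col1a1 and to Col1a2 are higher in diabetic hearts, without overlap in Vegfb KO rats, whereas the ratios between collagens overlap.

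To see whether the 4 genes varied together between rats of a group, each group mean was subtracted from log2 CPM and the deviations of the 20 hearts were correlated in 6 pairs, with 100000 permutations and Benjamini-Hochberg adjustment over the pairs. Both chains of type I collagen were nearly collinear, with a Pearson r of 0.98 and a Spearman rho of 0.97 for Col1a1 and Col1a2. The values were 0.92 and 0.85 for Col1a1 and Col3a1, and 0.91 and 0.87 for Col1a2 and Col3a1. For these 3 pairs the permutation p was 1e-05 for both measures, before and after adjustment, which is the smallest these permutations can give. Without the 2 hearts farthest from the median, r was 0.97, 0.86 and 0.84.

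Fn1 followed type I collagen less closely. With Col1a1, r was 0.75 (permutation p = 0.00014, adjusted p = 0.000168) and rho 0.76 (permutation p = 0.00025, adjusted p = 0.000375). With Col1a2, r was 0.74 (permutation p = 0.00013, adjusted p = 0.000168) and rho 0.68 (permutation p = 0.00114, adjusted p = 0.00137). Without the 2 farthest hearts r was 0.69 and 0.59. With Col3a1, r was 0.53 (permutation p = 0.0152, adjusted p = 0.0152) and rho 0.49 (permutation p = 0.0289, adjusted p = 0.0289), and r was 0.26 without WT diabetic replicates 1 and 3, 0.59 without the 2 libraries of low TMM factor and 0.62 with library totals, so that its strength depended on the hearts and the scaling. Leaving out the farthest hearts tends to lower r in any pair. The permutations shuffled the deviations of all 20 hearts together, across groups. They treat the hearts as independent and of equal spread, and do not allow for the removal of the 4 group means. The spread differed between groups, as deviations of Col1a1 ran from -0.52 to 0.64 in WT diabetic and from -0.17 to 0.21 in Vegfb KO control hearts. The labels name no batch within which the correlations could be recomputed.

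**Figure D5:**
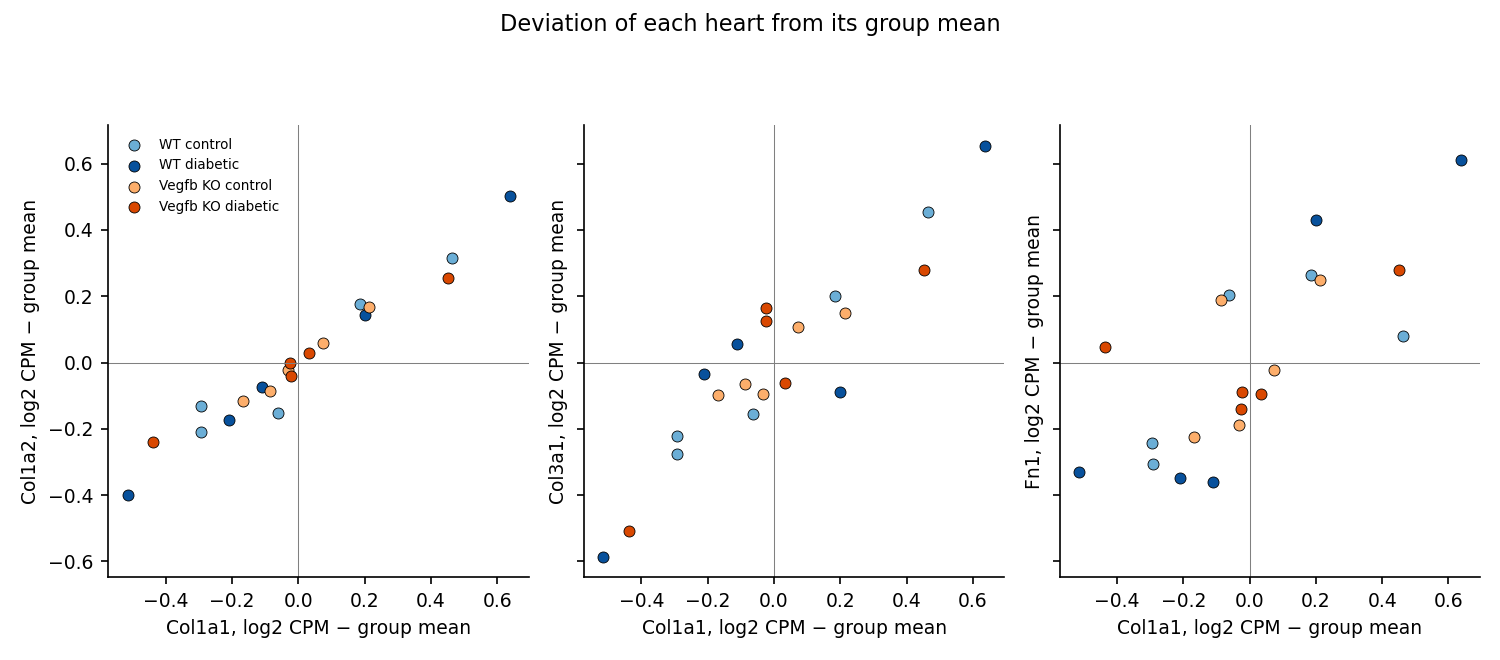
Deviation of each of the 20 hearts from its group mean in log2 CPM, for Col1a1 (x axis) against Col1a2, Col3a1 and Fn1 (y axes), with groups in colour. Points follow a line for Col1a2 (r = 0.98) and Col3a1 (r = 0.92) and scatter more for Fn1 (r = 0.75).

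The same deviations were compared with those of all 14292 other genes tested. For Col1a1 the gene most like it was Col1a2, and Col3a1 ranked 2. For Col1a2 the order was Col1a1 and then Col3a1. Outside the 4 genes, the 5 most like Col1a1 and the 5 most like Col1a2 were the same 5 IDs, whereas 0 of the 5 were shared by any other pair of the 4 genes. The ID at rank 3 for both Col1a1 and Col1a2 was not called with diabetes. Its log2 fold change was -0.37 in WT (adjusted p = 0.304, edgeR) and -0.16 in Vegfb KO hearts (adjusted p = 0.732, edgeR). For Col3a1, Col1a1 ranked 2 and Col1a2 ranked 4, behind ENSRNOG00000060381 at rank 1 with an r of 0.94. That ID, which has no name in the sources used here, fell with diabetes in WT (log2 fold change -0.83, standard error 0.14, adjusted p = 0.000301, edgeR) and in Vegfb KO hearts (log2 fold change -0.64, standard error 0.14, adjusted p = 0.00592, edgeR). Fn1 ranked 62 for Col1a1, 61 for Col1a2 and 558 for Col3a1. The ID most like Fn1 was ENSRNOG00000055962, with an r of 0.96 over the 20 hearts, and its log2 fold change with diabetes was -0.13 in WT (adjusted p = 0.671, edgeR) and -0.05 in Vegfb KO hearts (adjusted p = 0.912, edgeR).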

How the data were processed

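Ventricular RNA of 20 rats was sequenced as paired-end directional libraries. Reads were aligned by the authors to the reference transcriptome of the rat (mRatBN7.2), and the deposited table holds estimated counts by Ensembl ID, which were rounded to whole numbers here before any test. The submitters' processing notes name kallisto, edgeR and DESeq2 without a role. Reads that fit several similar genes may be divided among them by such methods.

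Samples were grouped by their labels. The main test used edgeR 4.0.16 (R 4.3.3) with filterByExpr by group, TMM factors and a robust quasi-likelihood fit of 4 group means to all 20 libraries, and Benjamini-Hochberg adjustment over 14293 genes. The script was tested on simulated data. Standard errors were taken from the coefficient and its F statistic, and log2 CPM used a prior count of 2. Alternatives were DESeq2 1.42.0, limma 3.58.1 (voom with quality weights), other scalings and filters, fewer libraries and each library left out.

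The members and lists were chosen with earlier results of these data known. The named genes are the 4 members and, of the 5 IDs most like each, 2 in all. Symbols of the members came with their IDs. The RefSeq table used here (47357 genes) carries 0 Ensembl IDs, so that 16 lists of matrix genes, cell type markers and other genes were not analysed here. Promoter sequence was taken from RefSeq (GRCr8).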

Additional observations from a re-analysis of the deposited data

Results flagged for a closer look

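In 1 of 40 groups of 5 values that were looked at, a single heart stood far from the rest. The log2 ratio of Fn1 to Col1a1 in Vegfb KO diabetic replicate 3 was -0.84, where the other 4 Vegfb KO diabetic hearts lay between -1.50 and -1.39. Chance gives about 2 such groups in 40. Col1a1 was at its lowest of the group in this heart, at 134 CPM, and Fn1 was at 74.8 CPM.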

How the results depend on the processing

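With 5 rats per group, the precision is set by the spread between rats. The collagens were lower with diabetes in both genotypes under every alternative run, and Fn1 in Vegfb KO hearts was higher. The causes of the changes below were not tested. For the mean of both diabetes contrasts DESeq2 gave -0.34 for Col1a1 (adjusted p = 0.0366) and -0.34 for Col3a1 (adjusted p = 0.0278). Voom gave -0.62, -0.49 and -0.58 for Col1a1, Col1a2 and Col3a1 in WT (adjusted p = 0.0180, 0.00600 and 0.0267), -0.46 and -0.43 for Col1a1 and Col3a1 in the mean (adjusted p = 0.00934 and 0.0141), and -0.17 in WT and -0.0061 in the mean for Fn1. Library totals gave -0.32 for Col1a2 in the mean (adjusted p = 0.0994) and -0.015 for Col1a2 between controls. Without both libraries of low TMM factor, Fn1 in WT was -0.018 and Col1a1 in the mean -0.43 (adjusted p = 0.0394).

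The number of genes called in WT, 1876, was 2819 with voom and 687 with library totals. In Vegfb KO hearts 1121 became 276 with library totals, of which 169 were higher and 107 lower, against 519 and 602 with TMM. For the mean, 2317 became 1427 with library totals. Between diabetic genotypes 6 became 65 with DESeq2, 28 with voom, 3 with library totals and 3 with only the 10 libraries compared.

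When the libraries were left out 1 at a time, the log2 fold change in WT ranged from -0.58 to -0.26 for Col1a1, from -0.48 to -0.25 for Col1a2, from -0.60 to -0.28 for Col3a1 and from -0.080 to 0.19 for Fn1. In the mean it ranged from -0.43 to -0.28, from -0.37 to -0.26 and from -0.44 to -0.28 for the 3 collagens in this order and from 0.038 to 0.17 for Fn1. Between control genotypes it ranged from -0.022 to 0.12 for Col1a2 and from -0.11 to 0.022 for Fn1, and between diabetic genotypes from -0.074 to 0.19 for Fn1. The interaction ranged from -0.021 to 0.30, from -0.013 to 0.22, from -0.0061 to 0.32 and from -0.028 to 0.24 for Col1a1, Col1a2, Col3a1 and Fn1. The genes called ranged from 2 to 181 between diabetic genotypes, the latter without WT diabetic replicate 3, and from 643 to 1244 in Vegfb KO hearts, the former without Vegfb KO diabetic replicate 3.

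The rats are described as littermates, but the labels tie no replicate number to a litter or an animal, so the numbers were not used as pairs. Deviations of the diabetic and control hearts with the same number correlated across genes by -0.26 to 0.07 for WT and by -0.03 to 0.26 for Vegfb KO rats. Of these, 0 of 5 in WT and 3 of 5 in Vegfb KO rats were above 0.1, and 0 of 5 and 2 of 5 correlated best with their own number. For WT with Vegfb KO controls the values were 0.03 to 0.13, all above 0 and 2 of 5 above 0.1, and each of the 3 collagens deviated in the same direction at 5 of 5 numbers, and 1 of 5 correlated best with its own number. For WT controls with Vegfb KO diabetic hearts they were -0.006 to 0.16, with 3 of 5 above 0.1 and 4 of 5 best with their own number. With 5 numbers to choose from, chance gives about 1 of 5 best with their own number. The 3 collagens varied together, so their counts of like direction are not independent. The share of all genes with 5 of 5 in like direction was not computed. In none of the 6 pairs of groups were all 5 above 0.1, and a weaker link is not excluded. With the replicate block no call of the 4 genes changed, Col1a2 in the mean was -0.30 (adjusted p = 0.0322, edgeR), and it left 1785 genes called with diabetes for WT and 1048 for Vegfb KO. In a test chosen after seeing the data, with the number's mean over the 4 groups also removed, r was 0.99, 0.96 and 0.95 among the collagens and 0.79, 0.82 and 0.74 for Fn1 with Col1a1, Col1a2 and Col3a1. With its mean removed separately in control and diabetic hearts, these were 0.99, 0.98, 0.98, 0.87, 0.87 and 0.80.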
